A study of Mus musculus with 4 samples.

Results

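Expression was compared between RNA-seq libraries of CT26 cells whose titles begin with CT26_102 and those whose titles begin with CT26_CTL. CT26 is an established mouse colon carcinoma line. The members were chosen by their titles alone: CT26_102 and CT26_102_R on one side, CT26_CTL and CT26_CTL_R on the other, which are 4 of the 4 libraries analysed here, 2 for each title stem. The submitters label CT26_102 and CT26_CTL as FOSL2-WT treated with PBS, and both libraries with the suffix R as FOSL2-KO given chemoradiotherapy. The Fosl2 transcript did not follow these labels: it was at 9.35 FPKM in CT26_102 and 12.7 FPKM in CT26_CTL, both labelled FOSL2-WT, and at 16.0 FPKM in CT26_102_R and 19.2 FPKM in CT26_CTL_R, both labelled FOSL2-KO. A gene-level FPKM does not show whether the gene was edited, so the knockout was not checked by these values. Each stem therefore holds 1 library of each labelled group, and the labels do not say what the stem names stand for or how the cells of each were derived. All 4 were grown in the same medium, and the labels call them both colon adenocarcinoma cells and mesenchymal cells. Nothing says whether the libraries came from separate cultures or whether a stem is 1 clone, and spread between libraries may be technical. The 2 libraries of a stem differ in labelled genotype and treatment, so they are not replicates of 1 condition. The p-values below therefore do not measure the spread between replicate cultures.

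Levels are FPKM, a level normalised by the authors for transcript length and for the number of mapped fragments in each library. Where 4 levels follow a gene they are those of CT26_102, CT26_102_R, CT26_CTL and CT26_CTL_R, in this order. A matched pair is the CT26_102 and the CT26_CTL library with the same suffix, and there are 2 pairs. Differences are CT26_102 minus CT26_CTL on the scale log2(FPKM + 1), which understates the change of low genes. Here a gene is called higher or lower where limma's adjusted p (Benjamini-Hochberg) was under 0.05 in a fit that held stem and suffix as terms, the two-term fit. That fit has 1 residual degree of freedom, the disagreement between the pairs, to which limma adds 4.01 from the spread over all genes. Its SE and p-values rest on that disagreement, and n = 2 per stem counts 1 library of each labelled group. Whether a stem difference depends on the suffix has no test of its own. Stems are said not to overlap where both levels of one lie above both levels of the other. That describes the 4 levels and is not evidence of a difference. An exact permutation test of 2 libraries against 2 cannot go below p = 0.333. The share of all tested genes without overlap was not counted, and most named genes were picked for large differences.

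Surface proteins decide which ligands and matrix a cell binds: receptor tyrosine kinases, plexins and neuropilins read soluble or membrane-bound cues, whereas integrins, cadherins and syndecans hold the cell to matrix or to neighbours. Secreted proteins either build the matrix, as collagens, laminins and thrombospondins do, or carry signals to other cells, as chemokines, colony-stimulating factors and growth factors do. Interferon-stimulated genes and many chemokine genes are switched on through short DNA elements close to their start sites. Lineage genes, such as keratins, Sox9 or the placental and germline genes, mark the tissue a cell comes from, and tumour lines often express several that do not belong to their tissue.

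The labelled cell type was checked against its defining genes first. Of 11 colon epithelial markers, Epcam, which encodes an epithelial adhesion protein, and the intestinal regulators Cdx1 and Cdx2 were listed at 0 in all 4 libraries, and 7 were below 1 FPKM throughout. The keratin genes Krt18 (34.7, 39.6, 42.5 and 76.5 FPKM) and Krt20 (27.3, 27.4, 24.5 and 36.8 FPKM) were expressed in every library. All 8 mesenchymal markers reached 1 FPKM in every library and none was called between the stems, with Vim, the intermediate filament vimentin, at 782, 535, 640 and 503 FPKM. Of 7 fibroblast markers 2 were called higher, Col1a1 and Col3a1, which are also on the collagen list, and their summed level was 222.9, 101.0, 108.0 and 76.01 FPKM, overlapping between the stems. Of the colon epithelial markers 1 was called higher, Krt8. Endothelial markers (5) and lymphoid markers (6) stayed below 1 FPKM in all libraries. The summed level of 6 myeloid markers was 29.72, 132.6, 47.57 and 90.94 FPKM and that of 3 leukocyte markers was 2.40, 6.767, 3.572 and 1.003 FPKM. These myeloid and leukocyte sums did not separate the stems, no gene among them was called, and Ptprc, the pan-leukocyte gene, was at most 0.0880 FPKM.

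Estimated depth was 21.5 to 26.5 M reads a library (M for mega), so 1 read in a transcript of 2 kilobases is worth 0.019 to 0.023 FPKM. Mitochondrially encoded genes took 12.04% and 12.27% of FPKM in the CT26_102 libraries and 9.367% and 9.094% in the CT26_CTL libraries. Differences also moved with transcript length: the median rose from -0.16 in the shortest quintile of tested genes to 0.27 in the longest. Of the shortest quintile 8.74% were called higher and 18.2% lower, and of the longest quintile 20.2% and 2.72%. Matrix and receptor genes tend to be long and cytokine genes short, so each list median printed is also given with the length trend removed, an alternative chosen after seeing the data.

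Of 11955 genes tested, 1494 were called higher in CT26_102 (12.5%) and 1129 lower (9.44%). Differences over 2-fold, that is over 1 on this log2 scale, in the same direction in both pairs were seen in 328 genes that were higher (2.74%) and 173 that were lower (1.45%). With the stem alone in the fit, which leaves the suffix in the error, 34 genes were called in either direction (0.284%). The surface, secreted and lineage lists hold 1886 genes of the file, of which 562 passed the filter on low values. Of these, 217 were called and 88 were over 2-fold apart in both pairs. Over all 11955 tested genes, 2623 were called and 501 were over 2-fold apart in the same direction in both pairs. The lists were chosen with earlier results of these data known, so a share above that of all genes may be built in by that choice. Each list count below stands beside 12.5% called higher and 9.44% called lower over all tested genes. The filter asks for at least 1 FPKM in at least 2 libraries, so it also let in genes that reached this in 1 stem only. The direction of such a gene was fixed by how it passed, so its call is no support for that direction. List counts include these genes. Of the 34 genes called with the stem alone, 15 are on these lists. They are Ptk7, Fgfr1, Cadm4, Slit3, Thbs1, Fbln5, Serpinf1, Prss23, Pdgfc, Clu, Igf2r, Dppa4, Plac8, Tubb3 and Slc1a2, with adjusted p from 0.0344 to 0.0421 in that limma fit. Every other list gene called below lost its call when the suffix was left out of the fit.

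**Figure D1:**
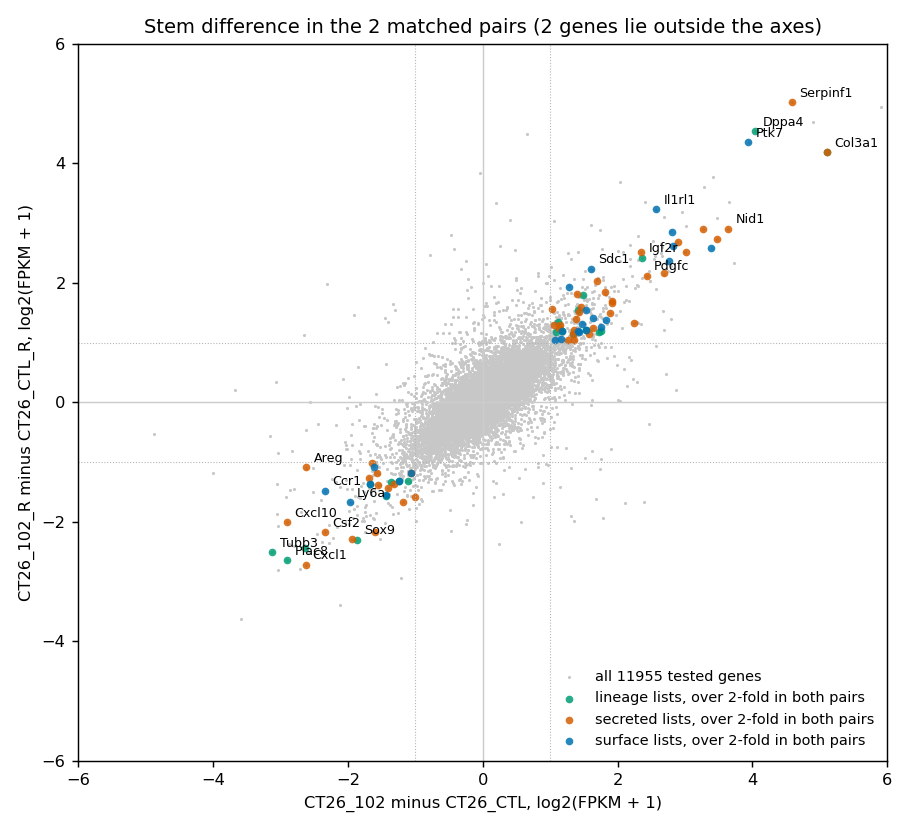
Stem difference in the pair without a suffix (x axis) and in the pair with suffix R (y axis), log2(FPKM + 1), for the 11955 tested genes, with genes of the surface, secreted and lineage lists that were over 2-fold apart in both pairs in colour; 2 genes lie outside the axes. Serpinf1, Col3a1, Dppa4 and Ptk7 stand at the upper right and Cxcl1, Tubb3 and Plac8 at the lower left, all on the same side of 0 in both pairs.

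The sequences shown first are promoters. Among genes over 2-fold lower in CT26_102 in both pairs, 2 short elements were more frequent in promoters than over all tested genes. That set of genes was picked from these same expression values. Promoters are the 250 bases before the RefSeq start site on GRCm38.p6, and 8327 of the tested genes' symbols matched one. The interferon response element was searched as GAAA, any 2 bases, GAAA, and the AP-1 element, the site bound by FOS and JUN proteins, as TGANTCA, both on both strands. Of the 173 genes over 2-fold lower in both pairs, 114 had a matched promoter, and 34 of these held either element. The interferon element was in 25 (21.9%) and the AP-1 element in 15 (13.2%), and 6 held both. The shares over all tested promoters were 2.75% and 4.28%. In the wider set of 686 matched promoters of all genes called lower they were smaller, 8.45% and 7.73%. Among 217 promoters of genes over 2-fold higher in both pairs, 0.922% held the interferon element and 5.99% the AP-1 element. The TEAD element GGAATG was in 12.3% of the lower, 16.1% of the higher and 10.5% of all tested promoters. These shares are descriptions of letters, not of binding. They were not matched for CpG content, which was lower in the over 2-fold sets than over all tested promoters. Neighbouring copies such as Ifit3 and Ifit3b, Gbp2 and Gbp2b, Apol9a and Apol9b, or Phf11a and Phf11b have similar promoters, so the 25 are not independent.

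The interferon element stood in the promoters of Ifit3 and Isg15, both interferon-stimulated genes, of Gbp3, which encodes a guanylate-binding protein of cell-autonomous defence, of Cxcl10, a chemokine for T cells, of Rsad2, the antiviral enzyme viperin, and of Mmp13, a collagenase. Those of Cxcl10, Rsad2, Ifit3 and Mmp13 also held the AP-1 element. The runs are 5′ to 3′ on the gene's strand, and capitals mark the AP-1 and interferon elements. Matches that overlap form 1 longer capital run in Isg15 (3 matches) and Gbp3 (2 matches).
Ifit3 (chr19:34583279-34583528, plus strand): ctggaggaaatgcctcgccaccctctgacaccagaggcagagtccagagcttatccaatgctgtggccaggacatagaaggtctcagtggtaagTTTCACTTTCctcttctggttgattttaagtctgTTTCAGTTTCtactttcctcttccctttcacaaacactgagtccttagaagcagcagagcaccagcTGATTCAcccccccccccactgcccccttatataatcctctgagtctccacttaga
Isg15 (chr4:156200819-156201068, minus strand): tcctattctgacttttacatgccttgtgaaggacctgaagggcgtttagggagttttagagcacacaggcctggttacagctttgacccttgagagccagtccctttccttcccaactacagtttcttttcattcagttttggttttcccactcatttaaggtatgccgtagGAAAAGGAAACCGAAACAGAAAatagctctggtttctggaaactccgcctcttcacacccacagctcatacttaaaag
Gbp3 (chr3:142559794-142560043, plus strand): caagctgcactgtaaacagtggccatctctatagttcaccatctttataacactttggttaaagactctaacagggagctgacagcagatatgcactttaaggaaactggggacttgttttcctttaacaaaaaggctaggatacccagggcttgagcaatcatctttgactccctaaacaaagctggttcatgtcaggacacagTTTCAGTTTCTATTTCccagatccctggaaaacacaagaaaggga
Cxcl10 (chr5:92348890-92349139, minus strand): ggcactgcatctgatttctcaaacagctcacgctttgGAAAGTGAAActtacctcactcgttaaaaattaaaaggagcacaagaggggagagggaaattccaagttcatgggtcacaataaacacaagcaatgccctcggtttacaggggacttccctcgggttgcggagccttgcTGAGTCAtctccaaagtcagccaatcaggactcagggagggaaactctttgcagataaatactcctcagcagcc
Rsad2 (chr12:26456453-26456702, minus strand): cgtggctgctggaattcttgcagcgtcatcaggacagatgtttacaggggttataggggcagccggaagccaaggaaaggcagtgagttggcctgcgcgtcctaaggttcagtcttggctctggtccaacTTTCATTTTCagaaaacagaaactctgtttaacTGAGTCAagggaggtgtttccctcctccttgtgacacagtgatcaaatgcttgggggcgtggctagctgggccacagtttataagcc
Mmp13 (chr9:7272264-7272513, plus strand): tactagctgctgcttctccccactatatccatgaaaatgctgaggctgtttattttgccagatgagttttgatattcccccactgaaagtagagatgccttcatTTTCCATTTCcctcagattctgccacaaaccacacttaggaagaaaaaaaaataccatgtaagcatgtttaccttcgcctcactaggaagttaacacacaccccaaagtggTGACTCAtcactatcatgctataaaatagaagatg

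These genes were drawn from those over 2-fold lower in both pairs, so their lower levels and their calls follow from that choice. No list of interferon-stimulated genes was counted here, and such genes were not all lower. Irf9 (0.228), Oas1c (0.092), Dhx58 (-0.38) and Irf1 (-0.488) were not called, while Mx1 (-1.555) and Ifi35 (-0.596) were called lower. Isg15 was at 135, 261, 399 and 686 FPKM, a difference of -1.47 ± 0.10 (SE of the two-term fit, n = 2 libraries per stem, limma adjusted p = 0.00420). Its CT26_CTL libraries were both above the CT26_102 libraries. Gbp3 was at 9.37, 18.8, 56.2 and 90.4 FPKM (-2.34, limma adjusted p = 0.00338) and its neighbour Gbp2 at 8.07, 14.8, 43.2 and 79.5 FPKM (-2.32, limma adjusted p = 0.00325). Neither overlapped between the stems, though reads can be shared among these similar genes. Rsad2 was at 4.51, 15.0, 21.5 and 38.3 FPKM (-1.66, limma adjusted p = 0.0130). Ifnb1, the interferon beta gene, was at 0.0543, 5.17, 0.458 and 26.4 FPKM and did not pass (-1.31, limma adjusted p = 0.0745).

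The other promoters of the lower genes with an interferon element belong to Phf11a, Phf11b, Gbp2b, Gbp2, Gbp5, Gbp7, Ifit3b, Edn1, Apol9a, Apol9b, Maats1, Ifi207, H2-T23, Tmem140, Tgtp1, Plk2, Spp1, Ppp1r15a and Serpinb6a. Among them Phf11a had the largest difference, from 12.5 and 12.1 FPKM in CT26_CTL and CT26_CTL_R to 0.648 and 0.873 FPKM in their CT26_102 partners. Apol9b, one of a pair of apolipoprotein L genes, was at 40.1, 44.3, 140 and 173 FPKM. The antigen-presentation gene H2-T23 was at 0.350, 0.235, 3.86 and 2.69 FPKM. AP-1 matches without an interferon match were in the promoters of 1700012B09Rik, Ptprtos, AA467197, Mirt1, Upp1, Gpr39, Mmp10, 2010204K13Rik and Mrpl33. Fosl2, the AP-1 subunit named by the series, was itself not called between the stems (-0.33, limma adjusted p = 0.130), but it was called lower with the length trend removed (-0.59, limma adjusted p = 0.0387). Within each stem it was higher in the library labelled FOSL2-KO, at the levels given at the outset.

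**Figure D2:**
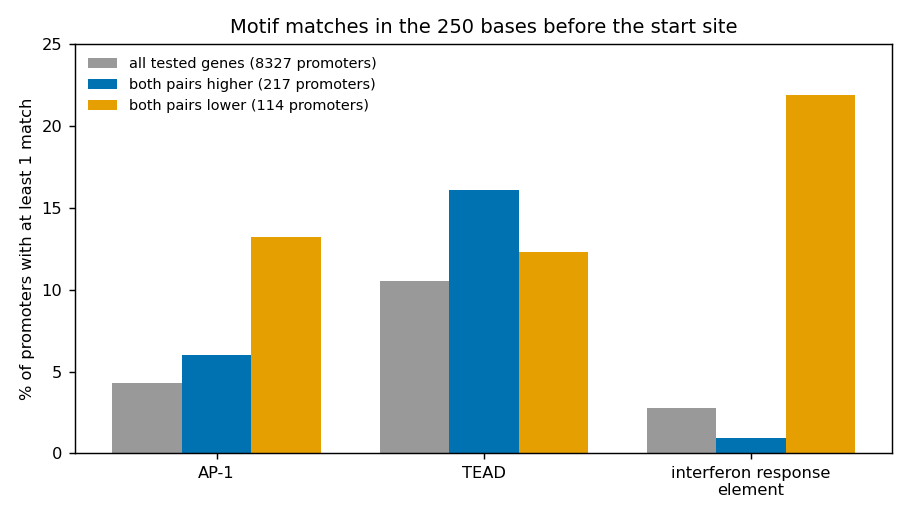
Share of promoters with at least 1 match (y axis, %) for 3 motifs, in all tested genes (8327 promoters), genes over 2-fold higher in both pairs (217) and genes over 2-fold lower in both pairs (114). The interferon response element was in 21.9% of the lower set against 2.75% of all and 0.922% of the higher set.

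CpG content was lower in the sets of genes over 2-fold apart. Promoters of genes over 2-fold lower in both pairs had a median of 6 CpG in 250 bases and those over 2-fold higher a median of 11, against 16 for all tested promoters. Over all genes called the medians were 14 for the lower and 17 for the higher. For the higher genes the median was thus below that of all tested promoters in the over 2-fold set only. The share of promoters with at least 10 CpG was 72.5% over all genes called higher, against 76.7% over all tested promoters. The over 2-fold higher genes spanned both extremes, shown here by Slit3 and Col3a1, with CpG in capitals: Slit3 has 35 and Col3a1 has 0.
Slit3 (chr11:35121206-35121455, plus strand): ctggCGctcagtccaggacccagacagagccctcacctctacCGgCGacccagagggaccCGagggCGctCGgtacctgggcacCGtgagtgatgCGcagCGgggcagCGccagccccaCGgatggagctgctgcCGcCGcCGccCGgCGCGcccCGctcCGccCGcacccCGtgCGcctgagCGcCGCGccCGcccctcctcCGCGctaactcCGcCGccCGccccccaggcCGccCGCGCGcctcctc
Col3a1 (chr1:45311288-45311537, plus strand): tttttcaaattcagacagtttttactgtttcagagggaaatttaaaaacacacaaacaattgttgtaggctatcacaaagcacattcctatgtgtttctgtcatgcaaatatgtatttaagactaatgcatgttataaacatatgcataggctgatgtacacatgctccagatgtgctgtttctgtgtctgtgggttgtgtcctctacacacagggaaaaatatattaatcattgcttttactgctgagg

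Among secreted signalling genes, chemokines and cytokines were called lower in CT26_102 and not higher, in a list chosen with earlier results of these data known. Of 21 chemokine and cytokine genes that passed the filter, out of 93 in the list, 10 were called lower and 0 higher, with a median difference of -0.76 (-0.75 with the length trend removed), against 0.05 over all tested genes. With the length trend removed 8 were called lower. None was called with the stem alone, where the smallest adjusted p of the list was 0.176. Several of these genes were also higher in the libraries with the suffix R than in those without it. Cxcl1 (ENSMUSG00000029380, chromosome 5, 90891241 to 90893115, plus strand), a neutrophil chemokine, was at 0.963, 10.8, 11.1 and 77.0 FPKM. The level in CT26_CTL was 11.6 times that in CT26_102, and with the suffix R it was 7.10 times, so the pairs agreed in direction while CT26_102_R lay just under CT26_CTL. The difference was -2.67 ± 0.13 (SE, n = 2 per stem, limma adjusted p = 0.00321, or 0.354 with the stem alone).

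Cxcl10 was at 2.02, 25.8, 21.5 and 106 FPKM, 10.6 and 4.13 times higher in the CT26_CTL library of each pair. Its stems overlapped, since CT26_102_R was above CT26_CTL, and the difference of -2.45 ± 0.23 (SE, n = 2 per stem, limma adjusted p = 0.00801) holds within pairs. Csf2, the granulocyte and macrophage colony-stimulating factor GM-CSF, was at 0.0578, 7.55, 4.36 and 37.5 FPKM (-2.25, limma adjusted p = 0.00394). Its stems also overlapped. Ccl5, a T cell chemokine, was at 1.14, 5.61, 5.47 and 28.7 FPKM (-1.88, limma adjusted p = 0.00823), with CT26_102_R just above CT26_CTL. Ccl20, Csf1, Il15, Il6, Clcf1 and Mif were called lower too, from -1.37 for Ccl20 to -0.42 for Mif. Csf1, which sustains macrophages, was at 24.9, 55.9, 58.3 and 90.9 FPKM, so its stems did not overlap.

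Among 38 growth factor genes that passed the filter, 8 were called lower and 4 higher (median -0.15, or -0.17 with the length trend removed). Edn1, the vasoactive peptide endothelin, was at 0.616, 0.825, 5.20 and 7.88 FPKM (-2.11 ± 0.16, SE, n = 2 per stem, limma adjusted p = 0.00538). Both CT26_CTL levels were well above both CT26_102 levels. The EGF receptor ligands Areg (3.05, 44.6, 23.9 and 96.5 FPKM) and Hbegf (5.16, 18.9, 20.8 and 34.9 FPKM) were called lower, and Areg overlapped between the stems. Pdgfc, a ligand of the PDGF receptors, moved the other way, at 6.42, 5.80, 0.376 and 0.563 FPKM (2.28 ± 0.16, limma adjusted p = 0.00468). Vegfd, Bdnf and Cgref1 were the other growth factor genes called higher.

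Of 15 TGF-beta and Wnt family ligands and antagonists, 5 were called higher and 1 lower. Dkk2, a secreted Wnt modulator, was at 16.8, 11.9, 1.75 and 1.89 FPKM, 9.60 and 6.29 times higher in CT26_102. Gdf11, a ligand of the activin type, was at 2.46, 3.75, 0.0654 and 0.153 FPKM. The BMP antagonist Grem1 was at 34.6, 32.3, 15.0 and 12.5 FPKM (1.23, limma adjusted p = 0.00947), with no overlap between the stems. Tgfb3 and Wnt9a were called higher and Wnt10a lower.

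Among listed genes of the extracellular matrix, chosen with earlier results of these data known, more were called higher than lower in CT26_102. Of 16 collagen genes that passed the filter 11 were called higher and 0 lower, with a median of 0.83 (0.68 with the length trend removed, when 9 were called higher and 1 lower). Col3a1, the fibrillar collagen of soft tissues (ENSMUSG00000026043, chromosome 1, 45311538 to 45349706, plus strand), was at 53.0, 19.8, 0.568 and 0.144 FPKM. It was 93.2 and 138 times higher in the CT26_102 library of each pair (4.65 ± 0.24, SE, n = 2 per stem, limma adjusted p = 0.00325, or 0.0545 with the stem alone). An annotated microRNA locus inside the gene, AC125167.1, followed it at 91.9, 29.8, 0.547 and 0 FPKM, and its reads cannot be told apart from those of Col3a1. The basement membrane collagen Col4a1 was at 65.2, 57.2, 20.3 and 23.6 FPKM, and Col5a1 was also over 2-fold higher in both pairs, while Col6a1 and Col1a1 were called with differences of 1.18 and 1.11. Col6a2 was listed at 0 in both CT26_CTL libraries and at 2.51 and 2.60 FPKM in the CT26_102 libraries.

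Of 53 matrix glycoprotein and proteoglycan genes, 24 were called higher and 3 lower, 16 of them over 2-fold higher in both pairs and 1 over 2-fold lower. The median was 0.50, and 0.54 with the length trend removed. Nid1, which links laminin to collagen in basement membrane, was at 13.8, 7.41, 0.184 and 0.122 FPKM, 74.7 and 61.0 times higher in CT26_102 (3.27 ± 0.22, SE, n = 2 per stem, limma adjusted p = 0.00430). Laminin subunits moved less: Lamb1 was at 38.5, 43.2, 13.8 and 14.6 FPKM and Lamc1 at 43.4, 49.5, 20.4 and 19.6 FPKM. In both the lower CT26_102 level was above the higher CT26_CTL level. Thbs2, Emilin2, Ogn, Omd, Sema3a and Sema3b were each over 2-fold higher in both pairs as well.

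Spp1, the secreted glycoprotein osteopontin, was the matrix gene over 2-fold lower in both pairs. It was at 495.5, 350.7, 1123 and 1111 FPKM, and both CT26_CTL levels were above both CT26_102 levels (-1.42 ± 0.13, SE, n = 2 per stem, limma adjusted p = 0.00784). Ecm1 and Pcolce were called lower with smaller differences of -0.76 and -0.48. Lgals1, the abundant lectin galectin, was lower at 2966, 2533, 5450 and 5332 FPKM.

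Proteases and their inhibitors were divided, with 8 of 36 called higher and 7 lower (5 and 8 with the length trend removed). Serpinf1, the antiangiogenic serpin PEDF, had the largest difference of the protein-coding genes on the lists, at 68.4, 47.8, 1.88 and 0.496 FPKM. Prss23, a secreted serine protease, was at 7.22, 5.44, 0.111 and 0 FPKM. The matrix metalloproteinases Mmp13 (1.01, 2.33, 5.46 and 7.005 FPKM) and Mmp10 (0.369, 0.939, 1.87 and 3.43 FPKM) were lower, whereas the membrane-bound Mmp14 was higher by 0.56 (limma adjusted p = 0.0441). Timp1, an inhibitor of metalloproteinases, was at 79.1, 206, 249 and 420 FPKM (-1.33, limma adjusted p = 0.0131). In this group the 3 that were over 2-fold higher in both pairs were Serpinf1, Prss23 and Serpinb8.

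Of 27 complement, acute phase and other secreted genes, 4 were called each way (14.8%), near the 12.5% higher and 9.44% lower of all tested genes. Clu, the extracellular chaperone clusterin, was at 22.08, 24.98, 3.513 and 3.523 FPKM (2.44 ± 0.13, SE, n = 2 per stem, limma adjusted p = 0.00338). C1qtnf1 and Apod were also over 2-fold higher in both pairs, and Fetub and Isg15 over 2-fold lower.

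**Figure D3:**
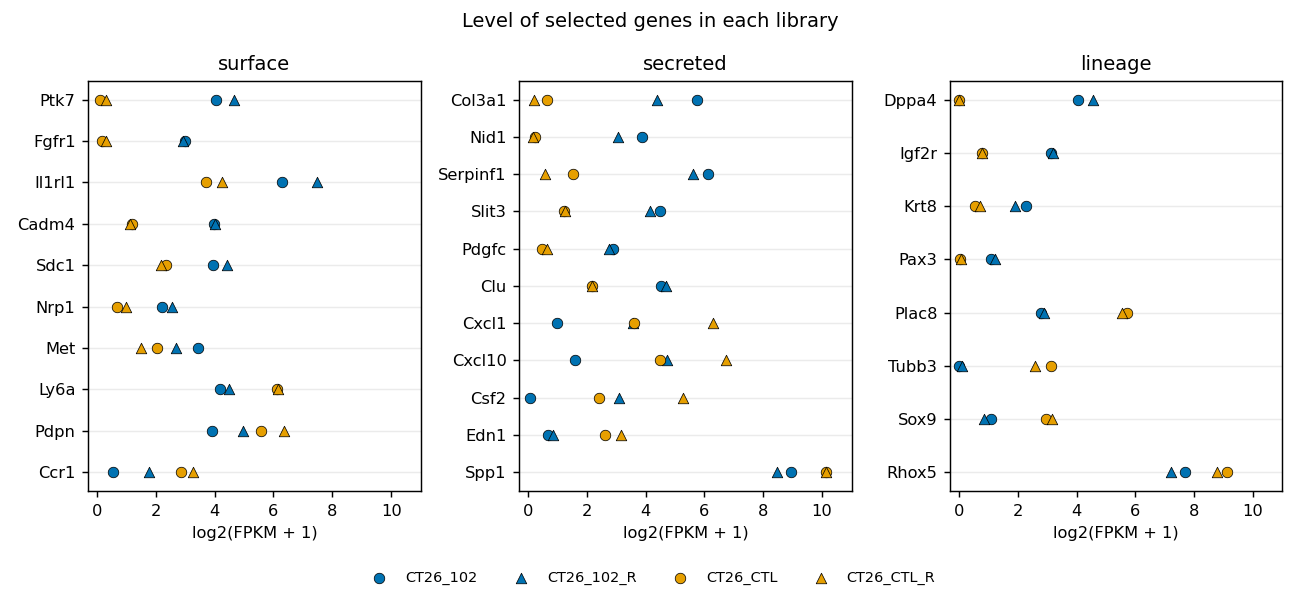
Levels of selected genes in each library on the log2(FPKM + 1) scale (x axis), for surface, secreted and lineage genes; blue symbols are the CT26_102 stem, orange symbols the CT26_CTL stem, and triangles carry the suffix R. Blue lies to the right of orange for Ptk7, Col3a1 and Dppa4 and to the left for Edn1 and Plac8, while Cxcl10 and Csf2 overlap between the stems.

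Among surface genes, listed with earlier results of these data known, more were called higher than lower. Of 207 that passed the filter, 65 were higher (31.4%) and 19 lower (9.18%), beside 12.5% and 9.44% of all tested genes. Their median was 0.30, and 0.17 with the length trend removed, when 52 were called higher and 21 lower. Of 18 receptor tyrosine kinase genes outside the Eph family 7 were called higher and 0 lower (median 0.47, or 0.28 with the length trend removed). Ptk7, a pseudokinase co-receptor of Wnt and planar polarity signalling (ENSMUSG00000023972, chromosome 17, 46564471 to 46629504, minus strand), was at 15.7, 24.4, 0.0852 and 0.236 FPKM. Fgfr1, an FGF receptor, was at 6.98, 6.57, 0.130 and 0.234 FPKM. For both genes the CT26_CTL levels were below 0.3 FPKM and the stems were far apart. Both passed the filter through the CT26_102 libraries alone, which fixed their direction.

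The other receptor tyrosine kinases that passed were expressed in both stems or near the floor. Met, the hepatocyte growth factor receptor, was at 9.905, 5.499, 3.107 and 1.831 FPKM (1.30, limma adjusted p = 0.0104). Erbb3 (2.85, 2.25, 0.335 and 0.397 FPKM) and Mertk (3.49, 2.66, 0.762 and 0.828 FPKM) were over 2-fold higher in both pairs, and Styk1 and Igf1r were called with differences of 1.0 and 0.85. In each of these the stems did not overlap. Erbb3 and Mertk also passed the filter through the CT26_102 libraries alone. Among 10 Eph receptors and ephrins 5 were called higher and 0 lower (median 0.67, or 0.62 with the length trend removed, when 3 were called). The 5 were the ligands Efna3, Efnb2 and Efna4 and the receptors Ephb2 and Ephb3.

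Of 11 semaphorin receptors and membrane semaphorins 6 were called higher, 0 lower and 5 not called (median 0.60, or 0.44 with the length trend removed, when 3 were called). Nrp1, the neuropilin that also binds VEGF, was at 3.629, 4.859, 0.5995 and 1.0 FPKM (1.54 ± 0.14, SE, n = 2 per stem, limma adjusted p = 0.00784). The plexins Plxnd1, Plxna1, Plxna2 and Plxnb2 were called higher by 0.65 to 1.06. The secreted semaphorins Sema3a and Sema3b were higher too, as given with the matrix genes. TGF-beta family receptors were called higher in 5 of 11 and lower in 0, all by less than 1 on the log2 scale, among them Tgfbr2, Tgfbr3 and Bmpr1a. Their median was 0.60, and 0.51 with the length trend removed, when 3 were called higher.

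Wnt and Notch receptors and membrane components were called higher in 6 of 18 and lower in 1 (median 0.46). With the length trend removed the median was 0.29, and 3 were called higher and 1 lower. The syndecan gene Sdc1, a heparan sulphate proteoglycan that binds growth factors, was at 14.3, 20.5, 4.05 and 3.56 FPKM (1.92 ± 0.19, SE, n = 2 per stem, limma adjusted p = 0.00882), whereas Sdc2 was at 13.7, 15.3, 22.0 and 30.3 FPKM (-0.79, limma adjusted p = 0.0241). The 2 syndecans thus differed in opposite directions, each without overlap between the stems. Kremen1, a receptor for Dickkopf proteins such as that of Dkk2, was at 10.51, 7.405, 2.712 and 2.17 FPKM. Lrp5 and Lrp6, the Wnt co-receptors, were higher by 0.84 and 0.88, and Notch1 by 0.88.

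Adhesion genes were led by Cadm4, an immunoglobulin-type adhesion molecule, at 14.9, 14.9, 1.29 and 1.19 FPKM (2.83 ± 0.13, SE, n = 2 per stem, limma adjusted p = 0.00316). Its libraries within a stem were nearly equal and the stems 11.6 and 12.6 times apart. Of 15 immunoglobulin-type adhesion genes 3 were called higher and 1, Boc, lower (median 0.22, or 0.11 with the length trend removed). Of 9 cadherin and protocadherin genes 5 were called higher and 1 lower (median 0.80, and 0.79 with the length trend removed). Fat1, a giant atypical cadherin, was at 23.1, 23.7, 6.17 and 9.27 FPKM, and Cdh13, a cadherin anchored by a lipid, was lower at 0.361, 0.474, 2.13 and 1.57 FPKM. Of 10 integrin subunit genes (median 0.46, or 0.28 with the length trend removed), Itgav, Itgb2 and Itga3 were higher by 0.91 to 1.10 and Itgb7 had a difference of -0.56.

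Receptors of the immune system were divided. Of 33 cytokine and TNF-family receptor genes 7 were called higher and 4 lower. The median was 0.02, and 0.04 with the length trend removed, when 7 were called each way. Il1rl1, the receptor of the alarmin IL-33, was at 76.54, 176.8, 12.09 and 17.98 FPKM (2.90 ± 0.19, SE, n = 2 per stem, limma adjusted p = 0.00420, or 0.109 with the stem alone). Both CT26_102 levels exceeded both CT26_CTL levels. Il13ra1, Il11ra1 and Il1r1 were higher by 1.30, 1.14 and 1.12. The 4 lower receptors all belong to the TNF receptor family: Tnfrsf12a, the TWEAK receptor, at 45.2, 84.3, 141 and 180 FPKM, the decoy receptors Tnfrsf22 and Tnfrsf23, and Tnfrsf9. Fas, the death receptor, was called higher at 1.45, 17.9, 0.423 and 4.19 FPKM (1.32, limma adjusted p = 0.0343), but without CT26_102_R and with no suffix term the difference was -0.15, and its stems overlapped.

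Among G protein-coupled receptors 8 of 23 were called higher and 3 lower (median 0.30, or 0.19 with the length trend removed, when 6 and 3 were called). Adgra2, an adhesion receptor of Wnt7 signalling, was at 34.7, 15.3, 13.7 and 3.23 FPKM. The chemokine receptor gene Ccr1 was at 0.440, 2.44, 6.31 and 8.60 FPKM (-1.91 ± 0.24, SE, n = 2 per stem, limma adjusted p = 0.0130), and Gpr39, a zinc-sensing receptor, at 1.62, 2.15, 6.06 and 8.20 FPKM. Gpr137b, the third gene called lower, was at 4.94, 3.26, 11.2 and 6.54 FPKM. None of the 3 overlapped between the stems.

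Other CD antigens and membrane glycoproteins formed the surface list with a negative median, -0.18 (-0.25 with the length trend removed), with 10 of 49 called higher and 8 lower. Tspan11, a tetraspanin, was at 11.4, 6.06, 0.183 and 0.175 FPKM, and Mrc2, an endocytic collagen receptor, at 15.85, 9.243, 1.482 and 1.001 FPKM (2.56 ± 0.16, SE, n = 2 per stem, limma adjusted p = 0.00413). Lower genes included Ly6a, the stem cell antigen, at 17.0, 21.2, 69.2 and 69.7 FPKM, and Pdpn, the mucin-type glycoprotein podoplanin, at 13.9, 30.5, 46.7 and 80.2 FPKM. The interferon-inducible tether Bst2 was at 431, 413, 814 and 892 FPKM, Ly6e at 251, 278, 361 and 535 FPKM, and Cd47, the signal that restrains phagocytes, at 9.60, 14.6, 24.3 and 24.5 FPKM. All 5 had both CT26_102 levels below both CT26_CTL levels.

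**Figure D4:**
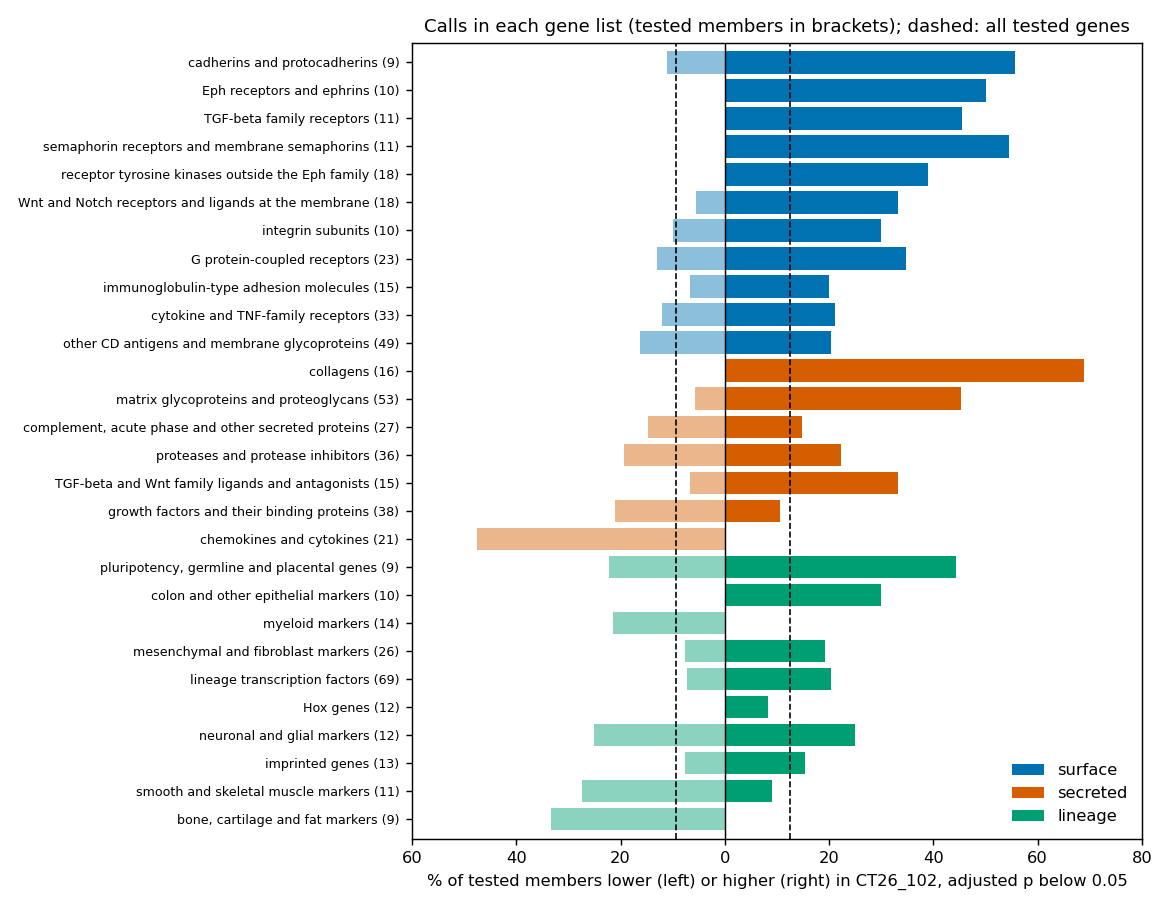
Percent of tested members called higher (right, solid) or lower (left, pale) in CT26_102 for the 28 lists with at least 5 tested members, coloured by class; dashed lines mark the 12.5% higher and 9.44% lower over all tested genes. Collagens have 11 of 16 members higher and chemokines and cytokines 10 of 21 lower. The lists were chosen with earlier results of these data known.

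Lineage genes were called in both directions, 30 of 177 higher (16.9%) and 22 lower (12.4%), shares near the 12.5% and 9.44% of all tested genes. Their median was 0.19, and 0.11 with the length trend removed. Of 10 epithelial markers that passed the filter, out of 64, 3 were called higher and 0 lower, among them Krt8 and Cdhr5. Krt8, the keratin that pairs with Krt18, was at 3.82, 2.74, 0.461 and 0.652 FPKM (1.45 ± 0.19, SE, n = 2 per stem, limma adjusted p = 0.0142), while its partner Krt18 was not called. Among mesenchymal and fibroblast markers 5 of 26 were called higher and 2 lower (median 0.37, or 0.21 with the length trend removed). Prrx2, a mesenchymal homeobox gene, was at 49.9, 52.9, 26.7 and 36.1 FPKM, and S100a4 was lower at 1534, 1734, 2255 and 3196 FPKM.

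Transcription factors of lineages were called higher in 14 of 69 and lower in 5 (median 0.23, or 0.06 with the length trend removed, when 11 and 6 were called). Sox9, the regulator of cartilage and of intestinal progenitors, was at 1.15, 0.807, 6.85 and 7.91 FPKM (-2.08 ± 0.17, SE, n = 2 per stem, limma adjusted p = 0.00620, or 0.0534 with the stem alone). Id1 and Id3, inhibitors of differentiation factors, were lower as well, at 7.20, 9.62, 16.6 and 25.6 FPKM for Id1. Six4, a homeobox gene of early muscle development, was higher at 1.79, 1.34, 0.222 and 0.266 FPKM. Pax3, a paired-box gene of muscle precursors and the neural crest, was at 1.15, 1.35, 0.0179 and 0.0411 FPKM. Ets1 was at 8.07, 17.9, 2.40 and 5.44 FPKM, and Zfpm1, a GATA cofactor, at 4.25, 6.19, 0.888 and 1.07 FPKM. In each of these transcription factor genes, except Id3 at 2.31, 10.2, 8.88 and 21.3 FPKM, the stems did not overlap.

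Neuronal and glial markers had 3 called higher and 3 lower of 12, with a median of 0.11 that turned to -0.09 with the length trend removed. Gap43, a growth cone gene, was higher at 1.03, 3.88, 0.0248 and 0.121 FPKM. Tubb3, the neuronal beta tubulin, was at 0, 0.0675, 7.70 and 5.07 FPKM, Slc1a2, a glutamate transporter, at 0.00704, 0.0582, 5.28 and 4.76 FPKM, and Syt1, the synaptic calcium sensor, at 0.0111, 0.0478, 1.60 and 1.66 FPKM. The last 3 were below 0.1 FPKM in both CT26_102 libraries. Of 14 myeloid markers Plac8, Cd53 and Ncf4 were called lower and 0 higher, although the list median was 0.37 (0.43 with the length trend removed). That list went opposite ways in the pairs, with a median of -0.50 without the suffix and 1.06 with it. Muscle markers had 1 of 11 higher and 3 lower, and markers of bone, cartilage and fat 0 of 9 higher and 3 lower. Of the few markers that passed the filter, 1 of 2 endothelial and 1 of 4 erythroid and megakaryocyte genes were called higher, the latter not with the length trend removed, and of 4 lymphoid genes 1 was called each way.

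Genes of pluripotency, germline and placenta were called higher in 4 of 9 and lower in 2. Dppa4, a pluripotency-associated chromatin gene, was at 15.4, 22.3, 0 and 0 FPKM, and Plac1, of the placenta, at 2.54, 1.66, 0.0541 and 0.158 FPKM. Rhox5, a homeobox gene of the testis and placenta on the X chromosome, was high in both stems and lower in CT26_102, at 205, 147, 553 and 440 FPKM (-1.50 ± 0.09, SE, n = 2 per stem, limma adjusted p = 0.00410). Among 13 imprinted genes Igf2r, the receptor that clears IGF2, was at 7.79, 8.15, 0.713 and 0.711 FPKM (2.39 ± 0.14, SE, n = 2 per stem, limma adjusted p = 0.00366). Its 2 libraries of each stem were nearly equal. Of 12 Hox genes 1 was called, Hoxa6, higher (8.33%, beside 12.5% of all tested genes).

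Some genes were on in one stem and off in the other, defined as at least 1 FPKM in both libraries of a stem and below 0.1 FPKM in both of the other. By this definition 45 genes were on in CT26_102, 36 of them protein-coding and 16 listed at 0 in both CT26_CTL libraries, and 12 were on in CT26_CTL. The definition itself fixes the direction of these genes, so their calls add nothing to it. The 5 with the highest level in CT26_102 were Gm773 (19.5, 22.8, 0.0395 and 0 FPKM), Dppa4, A230050P20Rik (12.6, 9.33, 0.0810 and 0.00642 FPKM), Cyp3a41a (10.2, 7.54, 0 and 0 FPKM) and Aldh1a7 (5.29, 5.48, 0 and 0.0672 FPKM). Cyp3a41a and Aldh1a7 have close relatives in the genome with which reads can be shared. The 5 highest in CT26_CTL were Pcdhgb1, Tubb3, Gm43827, Slc1a2 and Stbd1.

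Of the 45 genes on in CT26_102, 10 lie on chromosome 4, which holds 6.26% of the tested genes. They include Zfp981 (2.40, 2.84, 0.0861 and 0.0508 FPKM) and Zfp989 (1.45, 1.53, 0.0923 and 0 FPKM), zinc finger genes of a cluster of similar copies, and Ggh, Tusc1, Fyb2, Anks6, Draxin and Arhgef16. These were singled out after their values were seen.

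Some of the largest differences may concern which annotated copy took the reads. The protein-coding gene with the second largest difference, Chtf8 as ENSMUSG00000117748, was at 32.7, 29.3, 0.126 and 0.169 FPKM. A second identifier with the same symbol and strand at the same place, ENSMUSG00000046691, ran the other way at 5.74, 8.61, 34.6 and 28.7 FPKM, so that the summed level was 38.45, 37.96, 34.71 and 28.89 FPKM. Pcdhgb1, at 0.0345, 0, 15.6 and 1.28 FPKM, shares exons with Pcdhgc3, which was at 23.6, 16.4, 7.36 and 6.36 FPKM. Both are therefore uncertain as differences of a gene. Among the 501 genes over 2-fold apart in both pairs, the remaining overlap of opposite direction was Dagla with AC132148.1, on opposite strands.

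Stem differences also followed position in the genome, a pattern noticed after the values were seen. Over tested protein-coding genes the median difference was 0.08, and 18 of 20 chromosomes had the same sign of the median in both pairs. Chromosome 12 had a median of 0.49 (0.43 and 0.54 in the pair without and with the suffix, 0.39 with the length trend removed), and 39.1% of its 358 genes were called higher and 2.23% lower. Chromosome 14 had a median of 0.32 and chromosome 1 of 0.25, with 25.7% and 19.7% called higher. Chromosome X had a median of -0.30, with 25.1% called lower, and chromosome 15 of -0.18, with 24.8% called lower. Medians of the difference between suffixes lay between -0.07 and 0.05 on every chromosome.

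Within chromosome 15 the difference was not even. Genes at 20 to 80 Mb had medians of -0.40, -0.35 and -0.45 in successive windows of 20 Mb, while those beyond 100 Mb had a median of 0.23. On chromosome 3 the first 2 windows had medians of 0.43 and 0.56 and the last -0.35. Genes named above share these chromosomes, among them Sdc1 on chromosome 12, Clu on chromosome 14, Lgals1 and Ly6a on chromosome 15, and Timp1 and Rhox5 on the X chromosome. Col3a1, Il1rl1 and Pax3 lie on chromosome 1. The share of each gene's difference that goes with its chromosome was not tested.

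**Figure D5:**
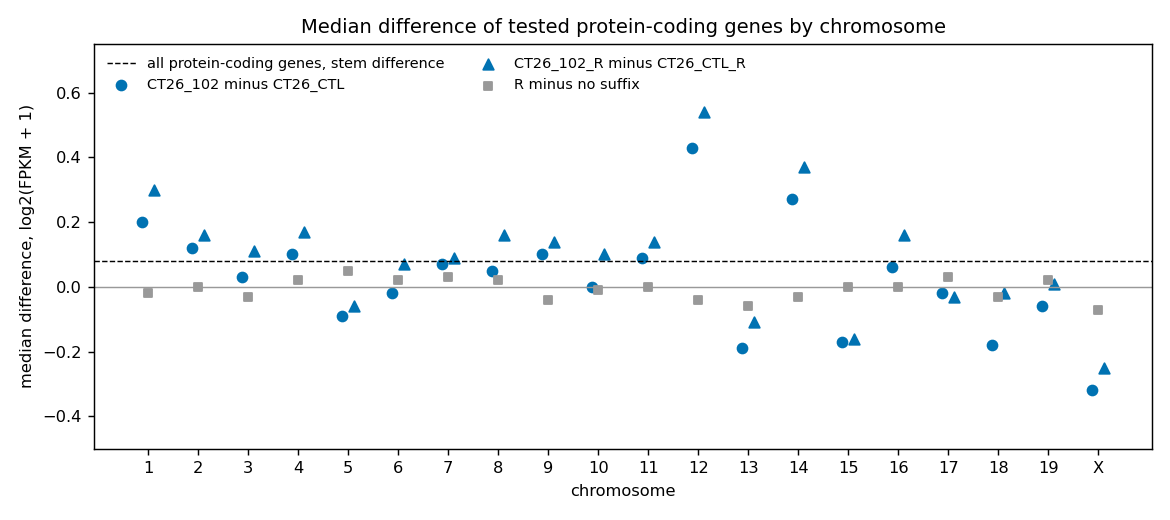
Median difference of tested protein-coding genes by chromosome (x axis) on the log2(FPKM + 1) scale (y axis): circles and triangles are the stem difference in the pair without and with the suffix R, grey squares the difference between suffixes. Chromosomes 12, 14 and 1 stand above and X, 15 and 13 below the dashed median of 0.08 in both pairs, while the squares stay between -0.07 and 0.05.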

How the data were processed

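RNA-seq of 4 libraries of a mouse cell line was analysed from the FPKM that the authors computed and deposited for 55335 gene identifiers. Read counts were not used here. Per the submitters' processing notes the builds are GRCm38 and mm10, one assembly under both names. No source used here gives the aligner, the quantification tool or the strandedness. Genes that overlap on opposite strands therefore cannot be told apart. Positions and exonic lengths come from GENCODE M21 (55154 identifiers matched) and promoters from RefSeq (GRCm38.p6). Depth was taken from the value that 1 read adds to genes of low FPKM.

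Groups were taken from the titles. Genes with at least 1 FPKM in at least 2 libraries were kept, as log2(FPKM + 1) with no further scaling. limma 3.58.1 in R 4.3.3 (eBayes with a trend, two-sided, Benjamini-Hochberg over all 11955 tested genes, threshold 0.05) was fitted with stem and suffix as terms, and the prior added 4.01 degrees of freedom. The code was tested on simulated data. An exact permutation test of 2 libraries against 2 cannot go below p = 0.333, so none was run. The pairing by suffix comes from the titles, and the suffix coincides with the labelled genotype and treatment.

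The 31 lists cover surface proteins (receptor tyrosine kinases, Eph and ephrin genes, integrins, cadherins, immunoglobulin-type adhesion, semaphorin, Wnt and Notch, TGF-beta, cytokine and G protein-coupled receptors, other CD antigens), secreted proteins and lineage markers. Members and lists were chosen with earlier results of these data known. Named genes are the largest differences over all genes, in each class (12 higher, 6 lower) and in each list (up to 4), the markers, and the 5 highest on-off genes each way; other names were chosen after their values were seen. Some genes are not reported here.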

Additional observations from a re-analysis of the deposited data

Results flagged for a closer look

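Of the genes over 2-fold apart in both pairs, 17 differed in opposite directions in the pair without and the pair with the suffix R; the difference was not tested. The following values are for the pair without the suffix, on the log2(FPKM + 1) scale. Lower in CT26_102 there, and higher with the suffix, were Gm24044 (-2.65), Scamp4 (-2.32), Mid1ip1 (-1.92), AY036118 (-1.51), Fam109a (-1.45), Acat3 (-1.41), Ppard (-1.34) and Mir719 (-1.30). Higher there, and lower with the suffix, were Bok (1.14), Gm15751 (1.30), Adat3 (1.31), Tmem184b (1.36), Tmem170b (1.68), Cptp (1.74), Zfp7 (1.78), Cipc (2.11) and Gm29100 (2.39). Scamp4 and Adat3, which overlap on the same strand, ran as mirror images. AY036118, at 546, 644, 1559 and 0.130 FPKM, was nearly without reads in CT26_CTL_R.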

How the results depend on the processing

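The number of calls depended on how the suffix was treated, and the directions mostly did not. Without the suffix term (no pairing) 34 genes were called, 28 higher and 6 lower, instead of 2623, and 25 of 117 named genes that had been called kept their call while 92 lost it. With 1 library left out of that fit, which sets a lone library against 2 and assumes that it varies like the others, calls numbered 4 without CT26_102, 16 without CT26_102_R, 7 without CT26_CTL and 0 without CT26_CTL_R (0 to 13 higher, 0 to 3 lower). In the last of these limma gave 951 genes an unadjusted p under 0.05. In these fits 2 named genes reversed: Fas (-0.15 without CT26_102_R) and Nppb (0.06 without CT26_102). With no filter on low values limma called 0 genes in either direction of 27670 in the two-term fit, 5802 of them at an unadjusted p under 0.05; with the filter it called 2623 and 4830 had an unadjusted p under 0.05. The other settings of the two-term fit kept 110 to 117 of the named calls, apart from the minimum of 5 FPKM, under which all 82 that were tested kept theirs. The share of calls that were higher was 57.0%, but 48.6% with a minimum of 5 FPKM and 50.2% with the length trend removed, which gave 1100 higher and 1093 lower. It rose to 63.5% without mitochondrially encoded genes, which gave 1578 higher and 908 lower, and to 59.6% with eBayes without a trend. Over 2-fold genes in both pairs numbered 501 and became 861 (597 higher, 264 lower) with a pseudocount of 0.1. In single pairs they numbered 927 to 1010 (591 to 615 higher, 312 to 419 lower). With off set below 0.3 FPKM 98 genes were on in CT26_102 and 19 in CT26_CTL, and with on set at 2 FPKM 20 and 4, against 45 and 12. The neuronal and glial list median turned to -0.09 with the length trend removed. Depth limits the on-off calls, since 1 read in 2 kilobases is 0.019 to 0.023 FPKM.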
